A study of Homo sapiens with 5 samples.

Results

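The genes described here are 49 genes of the response to type I interferon, measured in HL60 cells that carry a lentivector against a microRNA, a control lentivector or no vector. They were taken by name from a table of 51055 genes, and each of the 49 symbols matched 1 Ensembl gene of the table. The list holds the receptor chains IFNAR1 and IFNAR2, 4 transcription factors of the pathway, and 43 genes known to be induced through it. The 5 sequenced libraries all came from HL60, an established line of human promyelocytic leukaemia whose cells resemble early granulocyte precursors. The ZIP cells (n = 2 libraries) carried a lentivector whose hairpin was designed to give a full-length antisense strand to miR-378a-3p. The SCR cells (n = 2) carried the control lentivector, which the labels call scramble in 1 place and empty in another. Untransduced HL60 cells (n = 1) carried neither vector. Per the labels, both vectors hold green fluorescent protein, and both kinds of transduced cell went through spin transduction with polybrene and then puromycin, which the untransduced cells did not. The parts of vector, transduction and selection in a difference between SCR and untransduced cells cannot be told apart.

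Type I interferons are cytokines that cells release after sensing foreign nucleic acid. They bind the receptor of IFNAR1 and IFNAR2, whose kinases JAK1 and TYK2 phosphorylate STAT proteins such as STAT2, and STAT2 joins IRF9 in a complex that binds the interferon-stimulated response element (ISRE) in the promoters of antiviral genes. Myeloid cells keep a low level of this signalling at rest, and IRF7, itself a target, amplifies the production of interferon.

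The mature sequence of the microRNA that the ZIP vector was designed against is printed from RefSeq (GRCh38.p14, chr5:149732867-149732888, plus strand), with the seed, bases 2 to 8, in capitals. Its level was not analysed here.
hsa-miR-378a-3p: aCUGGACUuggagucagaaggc

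The libraries held 30925067 and 24406580 counts (ZIP), 24539092 and 24978022 counts (SCR) and 25064771 counts (untransduced). Levels are given as CPM, the count of a gene scaled to the library size after TMM, a scaling that sets the bulk of the genes equal between libraries. On library totals, before TMM, a count of 3 in a library was worth 0.0970 to 0.123 CPM. Libraries of 1 group lay close together, with a mean chi-square per gene of 1.79 between the ZIP libraries and 2.47 between the SCR libraries, against 87.3 between ZIP 1 and SCR 1. The labels do not say whether the libraries of a group come from separate cultures, so a p-value sets a difference against the spread among these libraries alone, and that spread may be technical. Genes of the promyelocyte, the cell type of the line, were high in every library, MPO at 16600 CPM or more in ZIP, 9974 CPM or more in SCR and 19030 CPM in untransduced cells. In bulk RNA, fewer cells that express a gene and less of its RNA per cell cannot be told apart.

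The interferon response genes were lower in ZIP than in SCR cells almost throughout. Of the 47 members with enough counts to test, 45 (95.7%) fell in ZIP by the edgeR quasi-likelihood test at a Benjamini-Hochberg adjusted p under 0.05, where 33.2% of the 14643 genes tested fell. PML alone among the tested members was called higher (2.13% of members, against 32.2% of all genes), and HERC6, at an adjusted p of 0.112, was called in neither direction (65.4% of all genes were called in either). A fall of at least 2-fold was found in 33 members, against 11.0% of all genes, and a rise of that size was found in 3.13% of all genes. The median log2 fold change of the tested members was -1.70, beside -0.00184 over all genes tested. The largest falls among members with counts in both groups were those of OAS2, IFI44L, IFI6, MX1 and GBP2, and EPSTI1 and IFITM1 had no count in either ZIP library. Of the tested members, 10 stood under the low-count filter's cutoff in a ZIP library and passed it through the SCR libraries, so they had to differ. Among the 37 members above the filter's cutoff in both groups, 35 were called lower and 1 higher, with a median of -1.38.

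Interferon response genes stood higher in SCR than in untransduced cells. In that comparison 43 of 47 tested members (91.5%) rose in SCR, where 32.7% of the 15832 genes tested rose, and 34 rose at least 2-fold, where 14.5% of all genes did. IFITM2 and PML were called lower (4.26% of members, against 32.2% of all genes, of which 5.86% fell at least 2-fold), and IRF1 and IFITM3 were not called (64.9% of all genes were called in either direction). The median log2 fold change of the members was 1.92, beside 0.016 over all genes tested. The untransduced library stood under the filter's cutoff for 12 members, which passed through transduced libraries. Among the 35 members above the cutoff in both groups, 31 were called higher and 2 lower, with a median of 1.32. With 1 untransduced library, its spread was taken to equal that of the transduced libraries. Both comparisons use the same 2 SCR libraries, so a low or a high value there moves both, and their values are set side by side here without being read as independent.

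Between ZIP and untransduced cells fewer members were called. Of the 47 tested members, 21 (44.7%) rose in ZIP, against 28.5% of all genes, and 7 (14.9%) fell, against 29.7% of all genes, while 19 were not called (58.2% of all genes were called). A rise of at least 2-fold was found for 11 members, against 8.70% of all genes, and a fall of that size for IFITM2 and IFITM3, against 5.19% of all genes. The median log2 fold change was 0.46, beside 0.00153 over all genes. In this comparison 13 members stood under the cutoff in 1 of the groups or both, and among the 34 above it in both, 15 were called higher and 6 lower, with a median of 0.34. Summed over all 49 members, the level was 624 and 621 CPM in ZIP, against 1280 and 1265 CPM in SCR and 572 CPM in untransduced cells. Call counts of this comparison leaned on single libraries, with 17 members called higher without ZIP 2, where MX1, USP18, IFI44 and HERC6 lost their call.

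Most monocyte markers moved with the interferon response genes. The 8 listed markers summed to 60.2 and 56.1 CPM in ZIP, against 198 and 204 CPM in SCR and 95.6 CPM in untransduced cells. In ZIP against SCR 6 were lower (75%, against 33.2% of all genes). In SCR against untransduced cells 7 were higher (87.5%, against 32.7% of all genes). Above the low-count cutoff in both groups, 4 of 6 were lower in ZIP than in SCR. Likewise 4 of 5 were higher in SCR than in untransduced cells. S100A8, a calcium-binding protein of myeloid cells, was called lower in SCR than in untransduced cells and held much of the ZIP and untransduced sums, with 44.0 and 39.4 CPM in the ZIP libraries, against 41.7 and 43.2 CPM in the SCR libraries and 88.8 CPM in the untransduced library. Without S100A8, left out after its values were seen, the other 7 summed to 16.2 and 16.7 CPM in ZIP, against 156 and 160.5 CPM in SCR and 6.85 CPM in untransduced cells, which turns the order of ZIP and untransduced cells. CD14 had 3.50 and 4.18 CPM in the ZIP libraries, against 54.7 and 53.6 CPM in the SCR libraries and 2.09 CPM in the untransduced library, and SIGLEC1, itself an interferon-stimulated gene, had no count in ZIP, against 8.32 and 9.11 CPM in the SCR libraries and 0.0417 CPM in the untransduced library. Promyelocyte markers, most of whose sum was MPO, were lowest in SCR, with sums of 23080 and 22430 CPM in ZIP, 12120 CPM in both SCR libraries and 24830 CPM in untransduced cells. Of these 7 markers, 5 were higher in ZIP than in SCR (71.4%, against 32.2% of all genes). MYB was lower (-0.14 on the log2 scale) and CD33 was not called. Among the plasmacytoid dendritic cell genes, CLEC4C and LILRA4 were at or below 0.237 CPM in every library and GZMB had no count. IL3RA, a cytokine receptor chain on that list, moved with the interferon response genes, at 1.01 and 1.37 CPM in ZIP, against 7.49 and 7.63 CPM in SCR and 0.918 CPM in untransduced cells. TCF4, a transcription factor on it, had 18.3 and 19.1 CPM in ZIP, against 15.7 and 14.0 CPM in SCR and 17.9 CPM in untransduced cells. MS4A1, HBA1 and HBB had no count. T and NK cell markers summed to 13.3 and 13.7 CPM in ZIP, 23.6 and 21.6 CPM in SCR and 12.8 CPM in untransduced cells, mostly NKG7. The part of these markers in the interferon result was not tested.

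**Figure D1:**
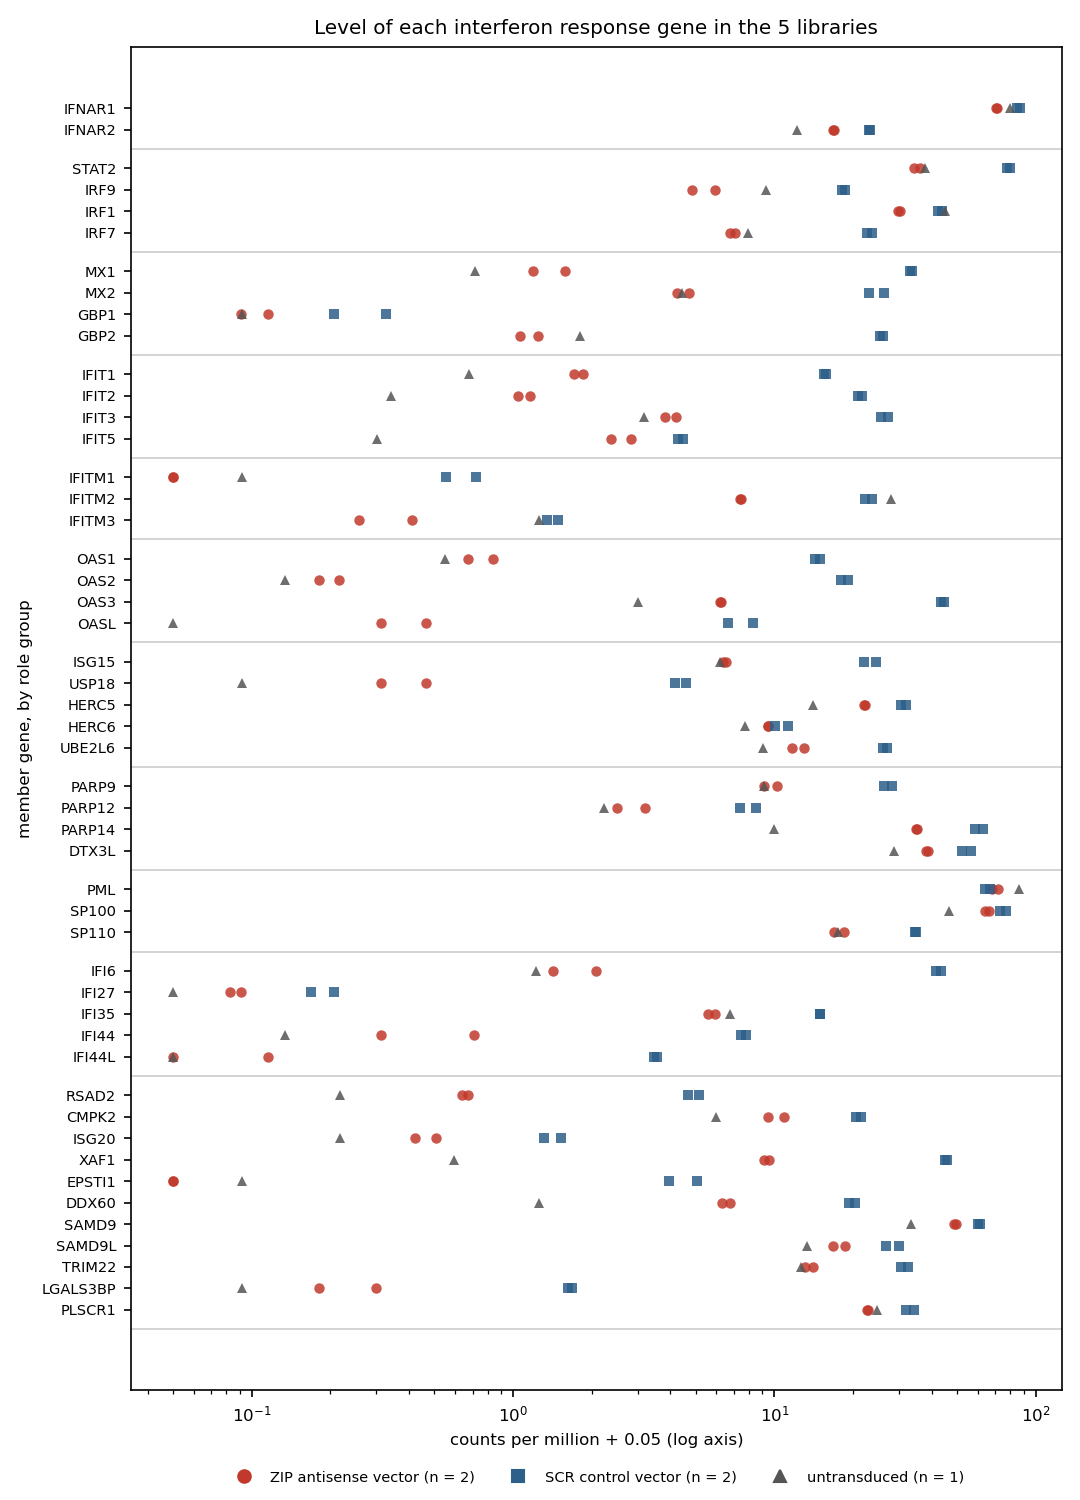
Level of each of the 49 members in the 5 libraries, in CPM plus 0.05 on a log axis, grouped by role. Circles are ZIP libraries, squares SCR libraries and triangles the untransduced library, and for most members the squares stand to the right of the other symbols, as for IFI6 at 1.37 and 2.03 CPM in ZIP, 43.3 and 41.6 CPM in SCR and 1.17 CPM in untransduced cells.

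**Figure D2:**
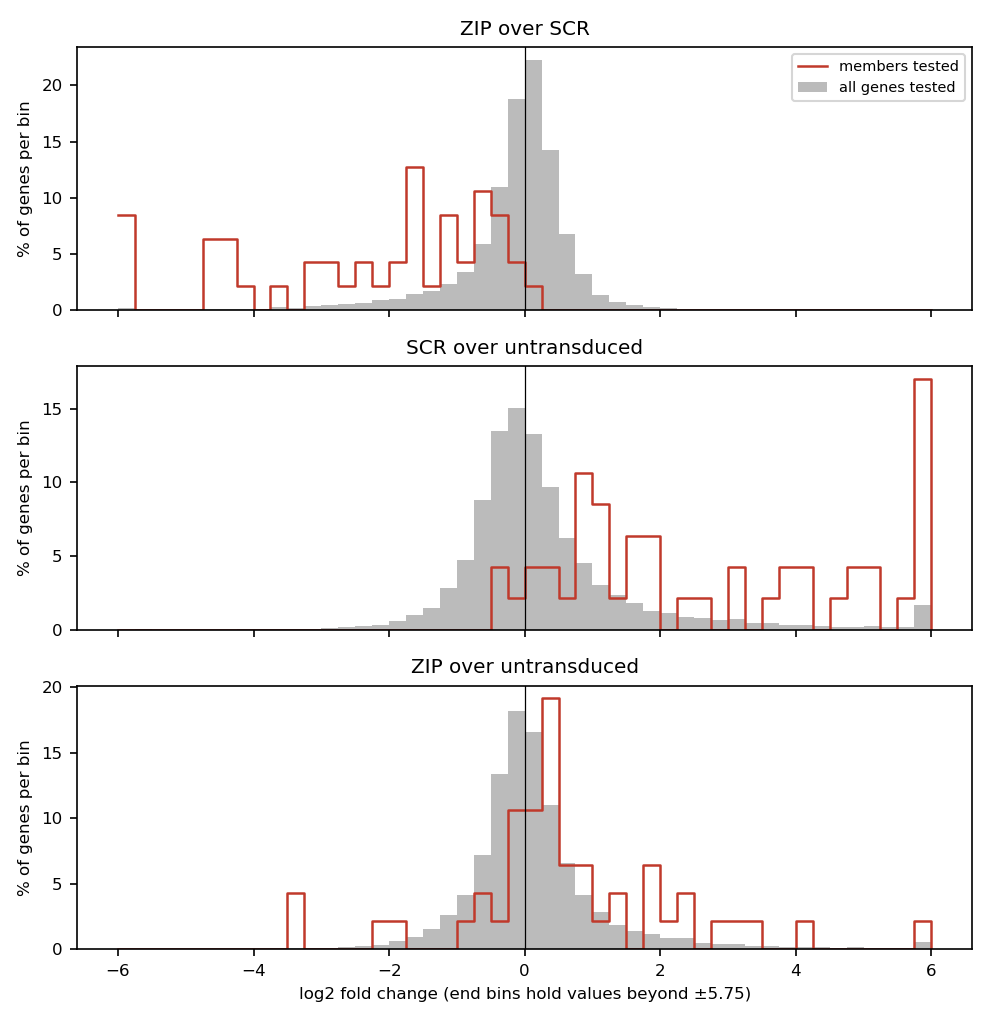
Share of genes, in percent, per bin of log2 fold change for the tested members (red line) and for all genes tested (grey), with ZIP over SCR at the top, SCR over untransduced in the middle and ZIP over untransduced at the bottom. The members centre on -1.70 in the top panel, 1.92 in the middle panel and 0.46 in the bottom panel, while all genes centre near 0, and the end bins hold the values beyond the axis.

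The members' promoters were searched for motifs of the pathway. The list was drawn from known genes of this pathway, so its ISRE share is no finding from these libraries. RefSeq promoter windows (GRCh38.p14, 250 bases before to 50 after the annotated start) were found for 38 of the 49 members. OAS2, OASL, GBP2, TRIM22, IFIT2, USP18, IFNAR2, IFITM2, MX2, IRF7 and PML were not matched. The ISRE core searched was GAAA, any 2 bases, then GAAA, on either strand. It was found in 23 of the 38 windows (60.5%), against 1255 of the 35116 windows of all genes (3.57%). With a C required after the last A, the share was 47.4% of the members' windows, against 0.795% of all windows. The core of the gamma-activated site (GAS), a motif of interferon-gamma targets, was searched as TTC, any 3 bases, then GAA. It was found in 26.3% of the members' windows, against 7.66% of all windows, and its matches overlapped an ISRE match in IFITM1, IFI27 and EPSTI1. A match is a string of letters in a window and was not tested as a binding site.

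Stretches of 60 bases before the annotated start are printed for 10 members, picked with their values known. IFI6, IFIT1, IFIT3, OAS3, ISG15, IFI44, EPSTI1 and DDX60 stand for members that were more than 2-fold higher in SCR than in both other groups, and PARP14 and IFIT5 for members whose ZIP level lay about midway between the others. Each runs along the gene's own strand with whole matches to the ISRE core in capitals, where the T and C form is the core on the opposite strand.
IFI6: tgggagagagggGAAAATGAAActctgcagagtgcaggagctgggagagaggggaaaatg
IFIT1: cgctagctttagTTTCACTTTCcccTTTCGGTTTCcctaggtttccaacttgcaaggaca
IFIT3: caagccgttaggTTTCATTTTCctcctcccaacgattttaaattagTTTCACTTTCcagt
OAS3: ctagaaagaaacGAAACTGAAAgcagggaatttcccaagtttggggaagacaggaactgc
ISG15: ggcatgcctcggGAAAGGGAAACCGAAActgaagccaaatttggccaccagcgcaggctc
IFI44: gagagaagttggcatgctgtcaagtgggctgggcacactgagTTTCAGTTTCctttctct
EPSTI1: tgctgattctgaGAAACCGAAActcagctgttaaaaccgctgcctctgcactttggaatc
DDX60: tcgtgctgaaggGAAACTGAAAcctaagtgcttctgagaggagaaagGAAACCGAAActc
PARP14: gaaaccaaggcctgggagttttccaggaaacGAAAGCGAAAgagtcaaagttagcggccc
IFIT5: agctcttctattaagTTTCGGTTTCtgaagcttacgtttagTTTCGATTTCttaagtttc
The stretches lie in GRCh38.p14 at chr1:27672301-27672360 (minus strand) for IFI6, chr10:89392495-89392554 (plus strand) for IFIT1, chr10:89327829-89327888 (plus strand) for IFIT3, chr12:112938319-112938378 (plus strand) for OAS3, chr1:1013372-1013431 (plus strand) for ISG15, chr1:78649729-78649788 (plus strand) for IFI44, chr13:42992244-42992303 (minus strand) for EPSTI1, chr4:168318793-168318852 (minus strand) for DDX60, chr3:122680779-122680838 (plus strand) for PARP14 and chr10:89414508-89414567 (plus strand) for IFIT5. In ISG15 a pair of matches share 4 bases, and IFIT1, IFIT3, DDX60 and IFIT5 each hold 2 separate matches in the stretch shown.

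The size of change of members with and without the core is given as a description, over members above the low-count cutoff in both groups. Of the 21 tested members with an ISRE core match, 7 stood under the cutoff in a group, in each comparison. The other 14 had a median log2 fold change of -1.56 in ZIP over SCR, all of them called lower, and the 14 above it in SCR over untransduced cells had a median of 2.27, with 13 called higher. Of the 15 tested members whose window held no match, 14 were called lower in ZIP than in SCR, with a median of -1.09 and HERC6 not called. In SCR over untransduced cells 14 of them were above the cutoff, with a median of 1.08, 13 called higher and IRF1 not called. OAS1, RSAD2 and XAF1 are among those without a match.

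**Figure D3:**
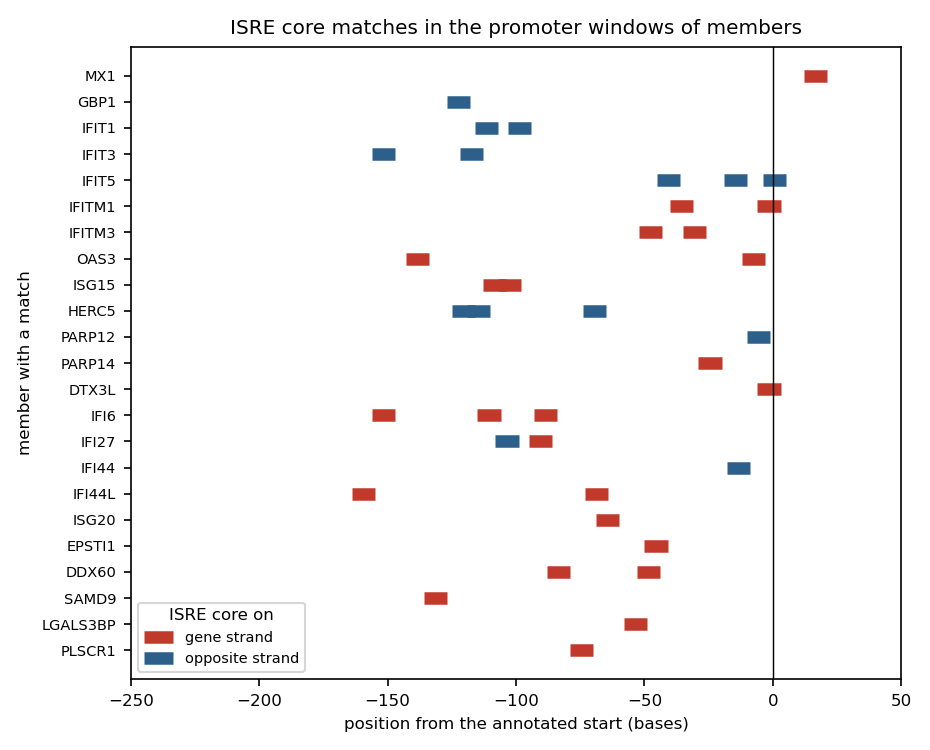
Position of each ISRE core match, in bases from the annotated start, in the 23 member windows that hold one. Red bars are matches on the gene's strand and blue bars on the opposite strand, and most bars lie before the start at 0, the MX1 match being after it.

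Both receptor chains were lower in ZIP than in SCR. IFNAR1 (ENSG00000142166) stood at 70.6 and 71.3 CPM in the ZIP libraries, against 84.5 and 86.7 CPM in the SCR libraries and 79.9 CPM in the untransduced library. The ZIP libraries were below all others, with a log2 fold change of -0.27 ± 0.034 (SE) from SCR and an adjusted p of 5.21e-07 by the edgeR quasi-likelihood test. The rise of IFNAR1 in SCR over untransduced cells, 0.10 ± 0.042 on the log2 scale, lost its call when either SCR library was left out. IFNAR2 (ENSG00000159110) stood at 16.9 and 16.8 CPM in the ZIP libraries, against 23.0 and 23.1 CPM in the SCR libraries and 12.2 CPM in the untransduced library, so the groups lay in 3 separate steps with SCR on top. Its log2 fold changes were -0.45 ± 0.065 for ZIP over SCR, 0.92 ± 0.094 for SCR over untransduced and 0.47 ± 0.096 for ZIP over untransduced. The exons of IFNAR2 share 2038 bases with AP000295.1 on the same strand, so reads could be split between them.

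All 4 transcription factors were lower in ZIP than in SCR, 3 of them by at least 2-fold. STAT2 (ENSG00000170581), which carries the activation domain of the complex with IRF9, had 35.9 and 34.2 CPM in the ZIP libraries, against 79.9 and 77.4 CPM in the SCR libraries and 37.6 CPM in the untransduced library. Both SCR libraries were about 2-fold above the other 3, which lay together. The log2 fold change of STAT2 was -1.16 ± 0.043 in ZIP over SCR (adjusted p = 2.87e-15, edgeR quasi-likelihood test) and -0.10 ± 0.061 in ZIP over untransduced, which was not called. IRF9 (ENSG00000213928), the DNA-binding subunit that completes the complex, had 5.88 and 4.80 CPM in the ZIP libraries, against 18.1 and 18.5 CPM in the SCR libraries and 9.22 CPM in the untransduced library. Here the ZIP libraries were the lowest, under the untransduced one, with log2 fold changes of -1.76 ± 0.1 from SCR and -0.77 ± 0.14 from untransduced cells. IRF7 (ENSG00000185507) had 6.73 and 6.99 CPM in the ZIP libraries, against 23.5 and 22.6 CPM in the SCR libraries and 7.89 CPM in the untransduced library, and the ZIP and untransduced values lay close together and apart from SCR (ZIP over SCR -1.75 ± 0.086, SCR over untransduced 1.55 ± 0.11). IRF1 (ENSG00000125347), which also answers to interferon-gamma, had another pattern, with 30.2 and 29.5 CPM in the ZIP libraries, against 43.9 and 42.2 CPM in the SCR libraries and 44.9 CPM in the untransduced library. It fell in ZIP against both other groups, by 0.52 and 0.58 on the log2 scale, and its difference of SCR from untransduced cells was not called (-0.06 ± 0.06, or 0.05 when library totals replace TMM). IRF9 shares 1838 exon bases with AL136295.5, and whether strand was used in counting is not stated in the labels or notes.

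Among the dynamin-like GTPases, antiviral proteins that assemble into rings on viral or vacuolar structures, the SCR libraries stood far above the rest. MX1 (ENSG00000157601) had 1.14 and 1.53 CPM in the ZIP libraries, against 33.5 and 33.1 CPM in the SCR libraries and 0.668 CPM in the untransduced library. That is 25.2-fold lower in ZIP than in SCR (log2 fold change -4.66 ± 0.17, adjusted p = 2.69e-18, edgeR quasi-likelihood test) and 49.5-fold higher in SCR than in untransduced cells. MX2, which acts on retroviral capsids, had 4.67 and 4.18 CPM in the ZIP libraries, against 26.2 and 22.9 CPM in the SCR libraries and 4.38 CPM in the untransduced library, so ZIP and untransduced cells overlapped. GBP2, a guanylate-binding protein, had 1.01 and 1.2 CPM in the ZIP libraries, against 26.0 and 25.3 CPM in the SCR libraries and 1.75 CPM in the untransduced library, and its log2 fold changes were -4.54 ± 0.18 in ZIP over SCR and 3.87 ± 0.21 in SCR over untransduced. GBP1 had 3 counts in ZIP, 11 in SCR and 1 in untransduced cells, too few to test, and SCR over ZIP gave a ratio of 3.93 (exact 95% interval 1.04 to 22, counting error only).

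The IFIT proteins, which bind viral RNA and hinder its translation, lie in a row on chromosome 10. IFIT1 had 1.8 and 1.65 CPM in the ZIP libraries, against 15.7 and 15.4 CPM in the SCR libraries and 0.626 CPM in the untransduced library, and IFIT2 had 1.11 and 0.993 CPM in the ZIP libraries, against 20.9 and 21.7 CPM in the SCR libraries and 0.292 CPM in the untransduced library. IFIT3, which stabilises IFIT1, had 3.76 and 4.14 CPM in the ZIP libraries, against 25.6 and 27.2 CPM in the SCR libraries and 3.13 CPM in the untransduced library. In all of these the SCR libraries were the highest, and ZIP lay above untransduced cells, by a log2 fold change of 1.46 ± 0.37 for IFIT1, 1.84 ± 0.54 for IFIT2 and 0.33 ± 0.19 for IFIT3, the last not called. ZIP over SCR gave -3.16 ± 0.15, -4.32 ± 0.18 and -2.75 ± 0.11 in the same order. IFIT5, an RNA-binding member of the family, had another order of levels, with 2.78 and 2.32 CPM in the ZIP libraries, against 4.22 and 4.44 CPM in the SCR libraries and 0.251 CPM in the untransduced library. It was 10.1-fold higher in ZIP than in untransduced cells and 1.68-fold lower than in SCR (adjusted p = 0.000334, edgeR quasi-likelihood test). Its window holds the ISRE core letters printed above, as those of IFIT1 and IFIT3 do.

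The IFITM proteins block virus entry at membranes, and against untransduced cells IFITM1 was called higher in SCR, IFITM2 lower and IFITM3 in neither direction. IFITM2 had 7.32 and 7.40 CPM in the ZIP libraries, against 22.1 and 23.5 CPM in the SCR libraries and 28.0 CPM in the untransduced library. It was lower in SCR than in untransduced cells by 0.29 on the log2 scale, a call that DESeq2 did not make (adjusted p = 0.111), and lower again in ZIP (-1.63 ± 0.085 over SCR). IFITM3 had 0.359 and 0.207 CPM in the ZIP libraries, against 1.30 and 1.44 CPM in the SCR libraries and 1.21 CPM in the untransduced library. SCR and untransduced cells thus lay together (0.18 ± 0.34, not called) above ZIP (-2.21 ± 0.4 over SCR). Both ZIP libraries stood under the low-count filter's cutoff for IFITM3, which passed through SCR, so ZIP had to be lower and its call adds no support. The call of IFITM1 rests on few counts and was not made by DESeq2. IFITM1 had 0 counts in ZIP, 30 in SCR and 1 in untransduced cells, which makes ZIP at least 10.7-fold lower than SCR with the ZIP group set to 3 counts. IFITM1 and IFITM2 share 351 exon bases on the same strand and the family is near-identical, so reads may be split among its members.

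The OAS enzymes make oligoadenylates that switch on RNase L, and their genes lie together on chromosome 12 apart from OASL. OAS3 had 6.17 and 6.12 CPM in the ZIP libraries, against 44.5 and 43.2 CPM in the SCR libraries and 2.96 CPM in the untransduced library. OAS2 (ENSG00000111335) had 0.131 and 0.165 CPM in the ZIP libraries, against 17.9 and 19.1 CPM in the SCR libraries and 0.0835 CPM in the untransduced library, a log2 fold change of -6.94 ± 0.48 in ZIP over SCR. OAS1 had 0.621 and 0.786 CPM in the ZIP libraries, against 14.2 and 14.9 CPM in the SCR libraries and 0.501 CPM in the untransduced library. The SCR libraries of each stood apart from the other 3, and ZIP exceeded untransduced cells by a called amount for OAS3 alone of these (1.05 ± 0.18). OASL, which lacks the enzyme activity and acts on RNA sensing, had 0.261 and 0.414 CPM in ZIP, against 8.24 and 6.58 CPM in SCR and no count in untransduced cells. With untransduced cells set to 3 counts, OASL was at least 2.62-fold higher in ZIP and at least 59.1-fold higher in SCR.

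ISG15 is a ubiquitin-like protein that is attached to others by UBE2L6 and HERC5 and removed by USP18, which also quiets the receptor. ISG15 had 6.5 and 6.33 CPM in the ZIP libraries, against 24.4 and 22 CPM in the SCR libraries and 6.14 CPM in the untransduced library, with ZIP and untransduced cells side by side (0.07 ± 0.14, not called) and SCR above both (-1.85 ± 0.093 for ZIP over SCR). UBE2L6 had 12.9 and 11.7 CPM in the ZIP libraries, against 26.9 and 26.0 CPM in the SCR libraries and 8.97 CPM in the untransduced library, and USP18 had 0.261 and 0.414 CPM in the ZIP libraries, against 4.54 and 4.12 CPM in the SCR libraries and 0.0417 CPM in the untransduced library, so ZIP lay between the other groups in both. HERC5 had 22 and 22.2 CPM in the ZIP libraries, against 30.4 and 31.8 CPM in the SCR libraries and 13.9 CPM in the untransduced library, with ZIP in the middle. HERC6, the ISG15 ligase of mice, had 9.38 and 9.39 CPM in the ZIP libraries, against 11.2 and 10.0 CPM in the SCR libraries and 7.64 CPM in the untransduced library. Its groups did not overlap, but the difference of ZIP from SCR, 0.17 ± 0.094 lower on the log2 scale, did not pass (adjusted p = 0.112, edgeR quasi-likelihood test), and it did with library totals (adjusted p = 0.0364).

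The ADP-ribosyltransferases modify proteins with ADP-ribose, and DTX3L is the ubiquitin ligase that works in a complex with PARP9. PARP14 had 34.9 and 35.0 CPM in the ZIP libraries, against 63.0 and 58.6 CPM in the SCR libraries and 9.89 CPM in the untransduced library, with ZIP about midway on the CPM scale between the other groups and a log2 fold change of 1.82 ± 0.1 over untransduced cells. DTX3L had 37.8 and 38.7 CPM in the ZIP libraries, against 52.1 and 56.3 CPM in the SCR libraries and 28.6 CPM in the untransduced library, likewise with ZIP in the middle. PARP9, which lies head to head with DTX3L and shares 217 exon bases with it on the opposite strand, had 9.05 and 10.2 CPM in the ZIP libraries, against 26.1 and 28.1 CPM in the SCR libraries and 9.10 CPM in the untransduced library. For PARP9 the ZIP and untransduced values overlapped, and PARP12, at 2.45 and 3.14 CPM in the ZIP libraries, against 7.33 and 8.44 CPM in the SCR libraries and 2.17 CPM in the untransduced library, was not called between those groups either (0.35 ± 0.24). In ZIP over SCR the 4 genes fell by log2 fold changes of -0.80 ± 0.048 (PARP14), -0.50 ± 0.048 (DTX3L), -1.50 ± 0.08 (PARP9) and -1.51 ± 0.15 (PARP12).

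The nuclear body proteins included the exception of the list. PML, the protein that builds these bodies, had 71.7 and 68.2 CPM in the ZIP libraries, against 63.8 and 66.7 CPM in the SCR libraries and 86.5 CPM in the untransduced library. It rose in ZIP over SCR by 0.10 ± 0.039 on the log2 scale (adjusted p = 0.024, edgeR quasi-likelihood test), but the call was lost without SCR 1 (adjusted p = 0.2) and without ZIP 1 (adjusted p = 0.242), and PML was highest in untransduced cells. SP100 had 63.6 and 66.2 CPM in the ZIP libraries, against 77.1 and 73.2 CPM in the SCR libraries and 46.4 CPM in the untransduced library, and SP110 had 18.5 and 16.8 CPM in the ZIP libraries, against 34.7 and 34.4 CPM in the SCR libraries and 17.5 CPM in the untransduced library. SP100 was thus lower in ZIP than in SCR by 0.21 and SP110 by 0.96 on the log2 scale, and SP110 did not differ in a called way between ZIP and untransduced cells (0.02 ± 0.089).

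IFI6 (ENSG00000126709, chr1:27666061-27672218, minus strand), a small membrane protein that holds off cell death, had 1.37 and 2.03 CPM in the ZIP libraries, against 43.3 and 41.6 CPM in the SCR libraries and 1.17 CPM in the untransduced library. It was 25.4-fold lower in ZIP than in SCR (-4.67 ± 0.16 on the log2 scale, adjusted p = 1.01e-18, edgeR quasi-likelihood test), and ZIP and untransduced cells did not differ in a called way (0.51 ± 0.32). IFI35, a partner of NMI, had 5.88 and 5.50 CPM in the ZIP libraries, against 14.9 CPM in both SCR libraries and 6.72 CPM in the untransduced library, and ZIP and untransduced cells did not differ in a called way. IFI44 had 0.261 and 0.662 CPM in the ZIP libraries, against 7.37 and 7.70 CPM in the SCR libraries and 0.0835 CPM in the untransduced library, and ZIP 1 and ZIP 2 differed by more than 2-fold on 8 and 16 counts. Its neighbour IFI44L had 2 and 0 counts in ZIP, 89 and 88 in SCR and 0 in untransduced cells, which put SCR 95-fold above ZIP (exact 95% interval 25.9 to 790, counting error only) and at least 27.7-fold above untransduced cells. IFI27 had 2 counts in ZIP, 7 in SCR and 0 in untransduced cells, and was not tested.

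The 11 other effectors all fell in ZIP against SCR, where 33.2% of all genes fell. All rose in SCR against untransduced cells, where 32.7% of all genes rose. Of the 11, 8 and 7 in the same order stood above the low-count cutoff in both groups. The direction of the others was bound by the filter or rests on few counts. XAF1, which counters the apoptosis inhibitor XIAP, had 9.47 and 9.06 CPM in the ZIP libraries, against 45.7 and 45.0 CPM in the SCR libraries and 0.543 CPM in the untransduced library. It was 82.8-fold higher in SCR and 17.0-fold higher in ZIP than in untransduced cells, so ZIP stood well clear of both other groups. EPSTI1 had no count in ZIP, 5.01 and 3.89 CPM in SCR and 0.0417 CPM (1 count) in untransduced cells, which makes ZIP at least 81.2-fold lower than SCR. DDX60, a helicase-like aid to RNA sensing, had 6.73 and 6.25 CPM in the ZIP libraries, against 20.4 and 19.2 CPM in the SCR libraries and 1.21 CPM in the untransduced library, again with ZIP between the groups (ZIP over untransduced 2.42 ± 0.27). SAMD9 and its neighbour SAMD9L, which restrain growth and poxviruses, differed less between the groups. SAMD9 had 49.5 and 48.5 CPM in the ZIP libraries, against 59.9 and 61.2 CPM in the SCR libraries and 33.4 CPM in the untransduced library, and SAMD9L had 16.7 and 18.6 CPM in the ZIP libraries, against 30.0 and 26.7 CPM in the SCR libraries and 13.3 CPM in the untransduced library. RSAD2, known as viperin, had 0.588 and 0.620 CPM in the ZIP libraries, against 4.61 and 5.10 CPM in the SCR libraries and 0.167 CPM in the untransduced library, and CMPK2, the nucleotide kinase beside it, had 10.8 and 9.39 CPM in the ZIP libraries, against 20.4 and 21.4 CPM in the SCR libraries and 5.93 CPM in the untransduced library. The ratio of ZIP to SCR was smaller for RSAD2 (-3.00 ± 0.26) than for CMPK2 (-1.03 ± 0.083), a difference that was not tested.

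Of the remaining effectors, PLSCR1, a membrane scramblase, had 22.7 and 22.5 CPM in the ZIP libraries, against 34.2 and 31.8 CPM in the SCR libraries and 24.6 CPM in the untransduced library, so that ZIP and untransduced cells lay close (-0.12 ± 0.078, not called). TRIM22, a ubiquitin ligase that restricts retroviruses, had 13.0 and 14.0 CPM in the ZIP libraries, against 32.3 and 30.4 CPM in the SCR libraries and 12.6 CPM in the untransduced library. ISG20, an exonuclease of RNA, and LGALS3BP, a secreted binder of galectins, were scarce. ISG20 had 0.457 and 0.372 CPM in the ZIP libraries, against 1.26 and 1.48 CPM in the SCR libraries and 0.167 CPM in the untransduced library. LGALS3BP had 0.131 and 0.248 CPM in the ZIP libraries, against 1.58 and 1.63 CPM in the SCR libraries and 0.0417 CPM in the untransduced library. In all 4 the SCR libraries were above the others, with log2 fold changes of ZIP over SCR of -0.55 ± 0.059 (PLSCR1), -1.22 ± 0.068 (TRIM22), -1.70 ± 0.35 (ISG20) and -3.10 ± 0.48 (LGALS3BP).

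**Figure D4:**
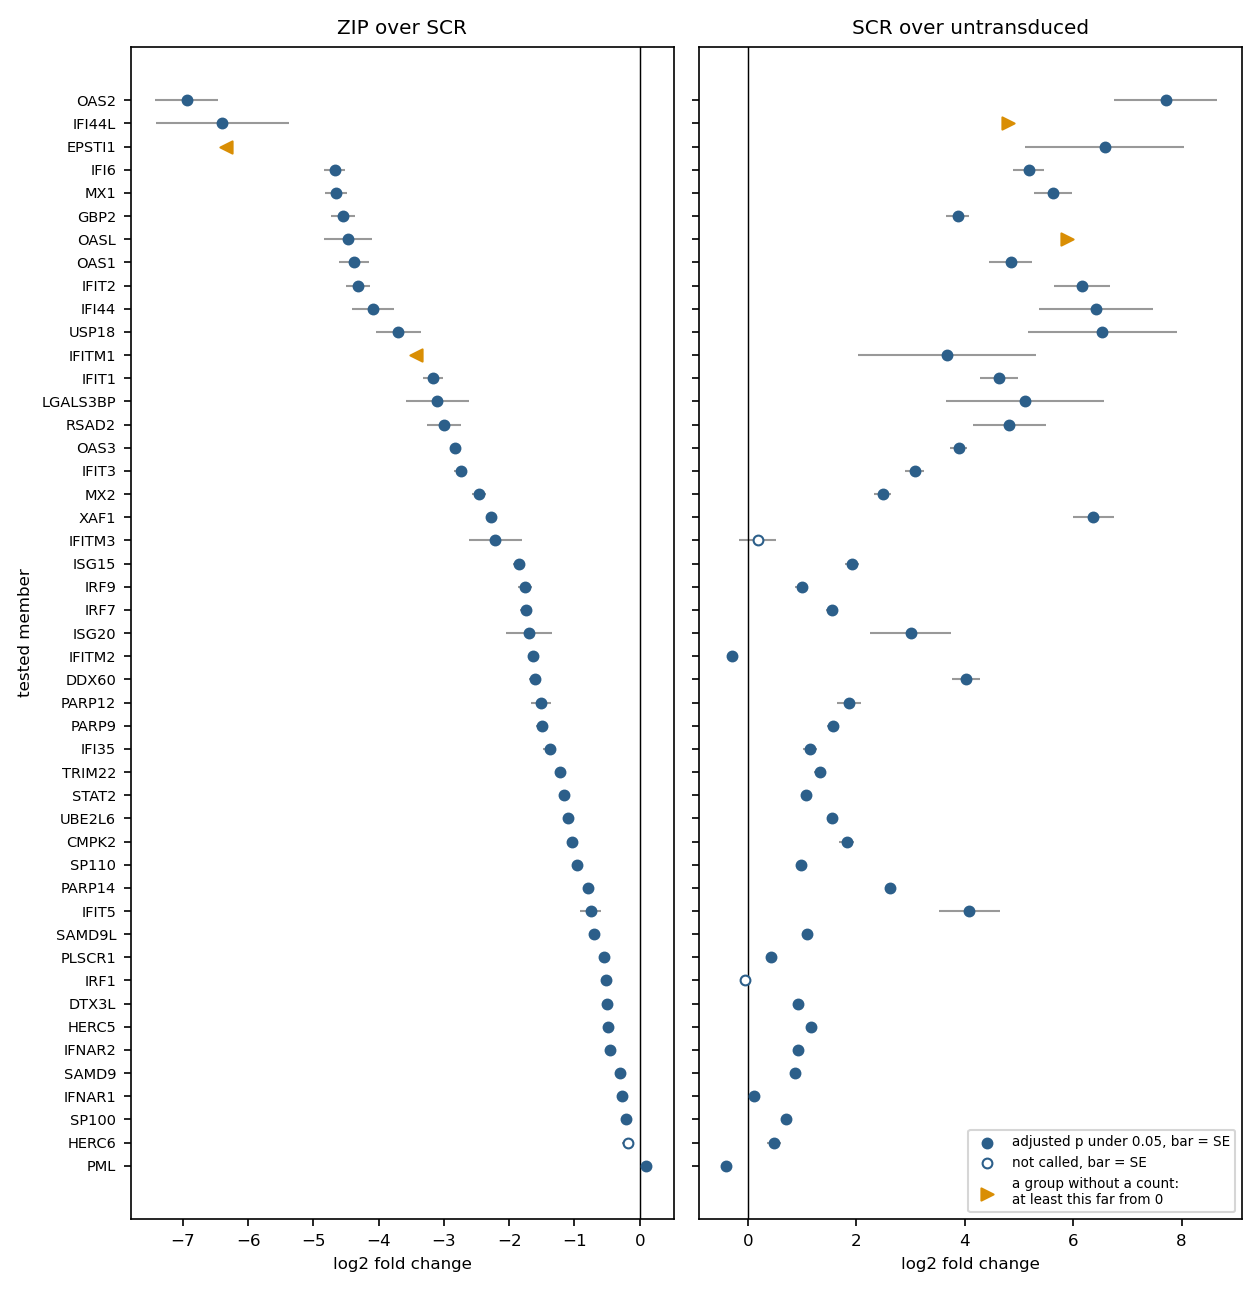
Log2 fold change of the 47 tested members in ZIP over SCR (left) and SCR over untransduced (right), ordered by the left panel, with bars of 1 standard error of the fit. Filled points have an adjusted p under 0.05 and open points do not, and triangles mark members with no count in a group at their bound. The left panel holds HERC6 as its open point and PML as its point above 0, and the right panel holds IRF1 and IFITM3 as open points.

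The members differed in how far ZIP cells stood from the untransduced level. For each of the 34 members at least 2-fold higher in SCR than in untransduced cells, the excess of ZIP over untransduced cells was divided by the excess of SCR over untransduced cells on the CPM scale. The share was under 10% for 24 members, from 10% to under 50% for 9 members and 56.3% for IFIT5, with a median of 4.79%. It was 0.351% for OAS2, 1.29% for IFI6 and 1.64% for ISG15, none of which was called between ZIP and untransduced cells. It was 2.05% for MX1, which was still called higher in ZIP than in untransduced cells, by 1.96-fold. It was 49.2% for PARP14, 47.8% for HERC5, 28.8% for SAMD9L, 28.4% for DDX60 and 19.5% for XAF1. The share was below 0 for GBP2, which was called lower in ZIP than in untransduced cells, and for IFI35, IRF7 and STAT2, which were not called between those groups. It was also below 0 for IFITM1 and EPSTI1, whose 0 counts in ZIP and 1 count in untransduced cells give no order. The shares use the same SCR and untransduced libraries for every member and rest on 1 untransduced library, so they describe these libraries and carry no test. The 34 include all 12 members under the filter's cutoff in the untransduced library. These 12 passed through transduced libraries, so at least 1 transduced library had to stand above the untransduced one. IFIT5 is 1 of the 12, with 6 untransduced counts.

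**Figure D5:**
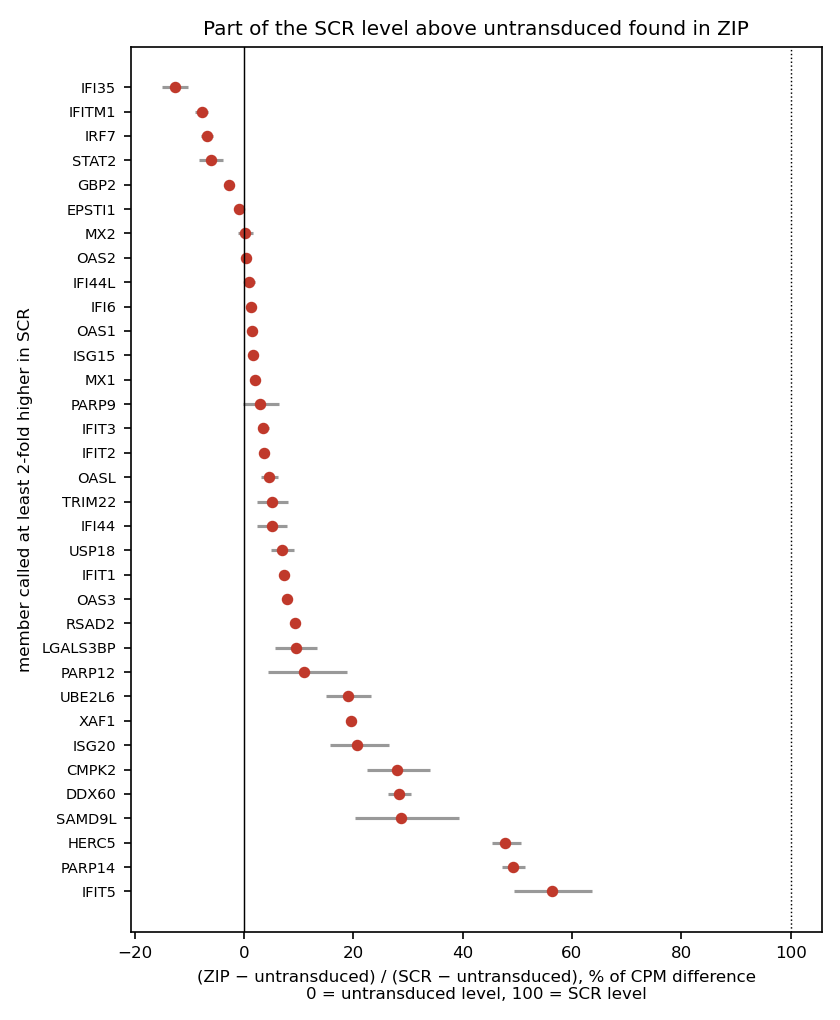
Excess of ZIP over untransduced cells as a percentage of the excess of SCR over untransduced cells, for the 34 members at least 2-fold higher in SCR. Points use group means and bars run from the lowest to the highest of the 4 pairings of a ZIP with an SCR library, and IFIT5 at 56.3%, PARP14 at 49.2% and HERC5 at 47.8% stand to the right of the others.

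Levels can be compared between genes per length, as TPM, counts per base of annotated exon scaled to 1 total in every library. In SCR cells IFI6 was the highest member at a mean of 183 TPM, followed by ISG15 at 92.0, IFITM2 at 55.3, IFNAR1 at 50.8 and STAT2 at 48.1 TPM. In ZIP cells the order was led by IFNAR1 at 38.1 TPM, SAMD9 at 24.2, ISG15 at 23.1 and DTX3L at 22.1 TPM. In untransduced cells IFITM2 led at 53.0 TPM, before IFNAR1 at 37.0, PML at 20.0 and ISG15 at 19.1 TPM. IFI6 stood at 6.65 TPM in ZIP and 3.95 TPM in untransduced cells, so its first place was seen in SCR cells.

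Neighbouring members were not alike in every cluster. IFI44 and IFI44L, 3650 bases apart on chromosome 1, were both near 0 in ZIP and untransduced cells. The OAS1, OAS3 and OAS2 genes, 5129 and 5145 bases apart, all stood highest in SCR. IFIT1 and IFIT5 lie 8099 bases apart, yet the share of the SCR excess found in ZIP was 7.36% for IFIT1 and 56.3% for IFIT5. HERC5 and HERC6, 14005 bases apart, had log2 fold changes of 1.16 ± 0.088 and 0.47 ± 0.13 in SCR over untransduced cells.

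The cytokines that start the pathway were near the limit of detection. Of 20 type I and type III interferon genes found in the table, 5 had a count, and no interferon gene had enough counts to test. IFNB1, which encodes interferon beta, had 0 and 0 counts in ZIP, 4 and 4 in SCR and 0 in untransduced cells. With the other groups set to 3 counts, SCR was at least 2.86-fold above ZIP and at least 1.25-fold above untransduced cells. IFNW1 (ZIP), IFNA8, IFNA13 and IFNA21 (SCR) had 1 count each, and a sum of 1 and 0 counts over the ligands in ZIP, 6 and 5 in SCR and 0 in untransduced cells covers them all.

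Signalling components and inhibitors outside the list moved in both directions. Of 20 tested genes, 15 were lower (75%, against 33.2% of all genes) and 4 higher (20%, against 32.2%) in ZIP than in SCR, with a median log2 fold change of -0.55. In SCR over untransduced cells 13 were higher (65%, against 32.7% of all genes) and 6 lower (30%, near the 32.2% of all genes). PTPN6, a phosphatase that dampens the receptor kinases, had 319 and 314 CPM in the ZIP libraries, against 534 and 535 CPM in the SCR libraries and 312 CPM in the untransduced library. IRF8, a transcription factor of monocytes and dendritic cells, had 59.2 and 56.9 CPM in the ZIP libraries, against 98.8 and 102 CPM in the SCR libraries and 2.84 CPM in the untransduced library, so that ZIP remained 20.4-fold above untransduced cells. IL10RB, a receptor chain of interferon lambda, had 36.0 and 38.3 CPM in the ZIP libraries, against 69.4 and 68.2 CPM in the SCR libraries and 43.0 CPM in the untransduced library, and IRF5, which drives cytokine genes, had 23.9 and 24.0 CPM in the ZIP libraries, against 49 and 48.8 CPM in the SCR libraries and 11.3 CPM in the untransduced library. All of these were highest in SCR, and IRF8 and IRF5 were not near the untransduced level in ZIP.

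Most genes of the interferon-gamma arm were also lower in ZIP than in SCR. Of 12 tested, 10 fell in ZIP against SCR (83.3%, against 33.2% of all genes) and the other 2 were not called (median -0.78). In SCR against untransduced cells 11 rose (91.7%, against 32.7% of all genes) and 1 fell. Above the low-count cutoff in both groups, 8 of 10 fell in ZIP against SCR and 8 of 9 rose in SCR against untransduced cells. IFNGR2, a chain of the gamma receptor, had 47.2 and 46.9 CPM in the ZIP libraries, against 105 and 96.9 CPM in the SCR libraries and 77.8 CPM in the untransduced library. ICAM1, an adhesion molecule, had 1.14 and 0.703 CPM in the ZIP libraries, against 16.2 and 14.9 CPM in the SCR libraries and 0.459 CPM in the untransduced library. FCGR1A, the high-affinity Fc receptor, had 3.79 and 3.93 CPM in the ZIP libraries, against 19.9 and 22.7 CPM in the SCR libraries and 2.21 CPM in the untransduced library. It is also a listed monocyte marker, and IRF8 and SOCS1 are also on the signalling list, so these lists share genes. Of 33 tested other interferon-stimulated genes that are not members, 22 fell (66.7%, against 33.2% of all genes) and 5 rose (15.2%, against 32.2%) in ZIP against SCR, with a median of -0.35. In SCR against untransduced cells 22 of 34 rose (64.7%, against 32.7%) and 7 fell (20.6%, against 32.2%), with a median of 0.56. HELZ2, a helicase and coactivator, had 0.523 and 0.538 CPM in the ZIP libraries, against 21.8 and 24.5 CPM in the SCR libraries and 0.251 CPM in the untransduced library. BST2, which tethers virions to the cell, had 24.7 and 25.9 CPM in the ZIP libraries, against 72.1 and 75.7 CPM in the SCR libraries and 11.3 CPM in the untransduced library, and IFI16, a DNA sensor, had 13.4 and 12.7 CPM in the ZIP libraries, against 39.0 CPM in both SCR libraries and 6.85 CPM in the untransduced library. TRIM14, an adaptor of antiviral signalling, was highest in ZIP, with 174 and 180 CPM in the ZIP libraries, against 102 and 106 CPM in the SCR libraries and 144 CPM in the untransduced library (0.77 ± 0.03 in ZIP over SCR, adjusted p = 1.07e-14, edgeR quasi-likelihood test).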

How the data were processed

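RNA of 5 HL60 libraries was sequenced, and groups were taken from the titles and treatment labels. The deposited values are raw gene counts, not normalized by the authors, for 51055 Ensembl IDs, with 0 rows that name no gene. Bowtie2 and featureCounts are named in the submitters' processing notes, while the design text names CASAVA 1.8.2, TopHat 2, Cufflinks and HTSeq, per the labels. The genome build, the annotation, the strand setting and which of these tools made the counts were not given in the sources used here, so overlapping and antisense genes are uncertain. Per the labels, the kit was one for small RNA, but protein-coding genes held 96.6 to 97.1% of the counts. Of the IDs, 44305 were matched to a list of gene names or to GENCODE 29 (GRCh38), and 6750 were matched to neither.

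Genes with few counts were left out by filterByExpr (count 10, total 15). A gene needed about 0.400 CPM in any library in the fits of 5 libraries, or 0.404 CPM in 2 libraries in the fit of 4. Counts were scaled by TMM and tested with the edgeR 4.0.16 quasi-likelihood test (limma 3.58.1, R 4.3.3), adjusted by Benjamini-Hochberg over all genes tested. ZIP against SCR used 4 libraries, and both comparisons with untransduced cells used all 5, each with 2 residual degrees of freedom. Standard errors are Wald errors of the fit. Where a group had no count, 3 counts over the group stood in for it and the ratio is a bound, intervals are exact at 95%, and both cover counting error only. DESeq2 1.42.0, other scalings, no filter, a replicate block and leaving out each library were tried as alternatives. The scripts were tested on simulated data. Role groups, pathway lists, motifs and the rule for giving values in every library (the receptors and transcription factors, the 3 highest members of every other role group, members not called or called against their group in a comparison, and members without a count in a group) were set from general knowledge, but the members and lists were chosen with earlier results of these data known. Values of some listed genes are not reported here.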

Additional observations from a re-analysis of the deposited data

How the results depend on the processing

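The fall of the members in ZIP against SCR held under every alternative tried: 44 to 45 were called lower and the median log2 fold change was -1.72 to -1.63 when single libraries were left out, and the median was -1.60 without the IFITM and GBP families. The single member called higher, PML, gave 1 call in the analysis reported and 0 calls with library totals in place of TMM (adjusted p = 0.322) and with the DESeq2 Wald test (0.159), and 0 to 1 when single libraries were left out. At an unadjusted p under 0.05 the count was also 0 in each setting that gave 0, by edgeR and by DESeq2. In SCR against untransduced cells, leaving out an SCR library gave 41 to 42 members higher and medians of 1.90 to 2.00. The median was 2.24 without the filter, which lets in low genes, and 1 member was called lower by DESeq2. IFNAR1 lost its call there under no filter, under DESeq2 and without either SCR library, and DESeq2 also lost IFITM1, IFITM2 and HERC6. In ZIP against untransduced cells, leaving out a ZIP library gave 17 to 21 members higher, 6 to 7 lower and medians of 0.34 to 0.46. Over all genes DESeq2 called 3023 lower there, against 4705 with edgeR, and the cause was not tested. GBP2 lost its call there under library totals, no filter, DESeq2 and without ZIP 1. DESeq2 also lost the calls of IFNAR1, USP18, HERC6, IFI44 and RSAD2 there, and HERC6 lost its call under no filter and without ZIP 1 too. Signs turned for 3 values, all uncalled: IRF1 in SCR against untransduced cells (0.049 with library totals, which shift the median of all genes by 0.110), and MX2 (-0.069) and SP110 (-0.062) in ZIP against untransduced cells without ZIP 1, against 0.101 and 0.086 without ZIP 2. Of 1032 single-member values recomputed, 1001 kept direction and side of the threshold. The GAS core, searched in place of the ISRE core, matched 10 members. With no interferon gene passing the filter, the depth limits what can be said of the ligands.

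Replicate numbers of ZIP and SCR libraries share no stated link. The log2 difference between the SCR libraries and that between the ZIP libraries, both in number order, correlated at 0.036 across genes. No pairing by number was thus seen. With the replicate block 45 members were lower and 1 higher, the median was -1.69, and 4790 genes were called higher and 4919 lower over all genes.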
